A study of Mus musculus with 80 samples.

Results

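Hindlimb unloading, in which the hind legs of a mouse are lifted so that they bear no weight, was followed here in the gastrocnemius, the large calf muscle, of female C57BL6/J mice. The comparison is of the 8 libraries from females unloaded for 72 h with the 8 libraries from female controls at 0 h, taken by the sex and time point in the sample labels, so it rests on 16 of the 80 RNA-seq libraries of the series. All 11068 genes of the female table entered it. The other female groups were unloaded for 24, 48 and 168 h (8, 8 and 7 libraries), and a parallel male set of 41 libraries had the same times. The labels give no age, no housing condition for the controls, and no drug or transgene in any group, and they do not say outright that each library is a separate animal, so p-values measure the spread between these libraries.

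Skeletal muscle that no longer carries load shrinks mainly because protein breakdown outpaces protein synthesis. Breakdown of contractile proteins runs through ubiquitin ligases that tag them, many of the genes for which are switched on by FoxO transcription factors, and through the 26S proteasome that digests them, with the autophagy and lysosome route beside it. Load also maintains slow fibres, actin gene transcription through serum response factor, oxidative metabolism and the collagen made by fibroblasts between the fibres.

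The values are a normalized signal, estimated reads per gene divided by a size factor for each library, so they can be compared between libraries for a gene but not between genes of different length. Estimated depth was 5.57 to 9.63 M reads in the 72 h libraries and 25.6 to 50.5 M reads in the 0 h libraries, and the 2 groups do not overlap in depth. The sample titles place them in different sequencing number series, so depth and sequencing set cannot be told apart from time in this comparison. 3 libraries stood apart from their own group (median Spearman correlation under 0.95), replicates 2 and 5 of 72 h and replicate 7 of 0 h. They also had a low mitochondrial share of the signal, 8.34% and 6.09% in those 72 h libraries, against 7.35% in that 0 h library, where the others held 11.3% to 14.0% at 72 h and 11.7% to 16.6% at 0 h. Xist, the RNA that coats the inactive X chromosome of females, was low in the same libraries, with a signal of 893 and 172 in those of 72 h, against 284 in that of 0 h, where the others had 2730.1 to 3744 at 72 h and 1181 to 4274 at 0 h. None of the Y-linked genes Ddx3y, Eif2s3y, Kdm5d and Uty had a row in the female table. By the same threshold replicates 1 and 2 of 24 h, 5 of 48 h and 7 of 168 h stood apart from their groups, and every value given without the libraries that stood apart leaves out all 7. All 10 markers of skeletal muscle fibres fixed for the check of the tissue were measured, and no marker of neutrophils or lymphocytes had a row among the 11068 genes.

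At 72 h, 1861 genes were higher and 1463 lower than at 0 h, which is 16.8% and 13.2% of the 11068 genes tested and 30.0% in both directions (limma on log2 of the signal plus 1, Benjamini-Hochberg adjusted p under 0.05). The median log2 change over all genes was 0.03. The median log2 change was 0.46 among genes called higher and -0.57 among genes called lower. A change of at least 1 on the log2 scale was reached by 162 genes called higher and 219 called lower, and one of at least 2 by 15 and 25. In 537 genes every 72 h library lay above every 0 h library and in 284 every one lay below, 4.85% and 2.57% of the genes tested. The authors' deposited table of the same comparison lists 2152 genes higher and 1496 lower at an FDR under 0.05, and 3266 genes were called there and here in the same direction and 0 in opposite directions. When each library was scaled to the same summed signal, in place of the authors' size factors, the calls were 2433 higher and 972 lower and the median change over all genes was 0.11, so the share of higher calls was 71.45% of all calls in place of 55.99%.

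**Figure D1:**
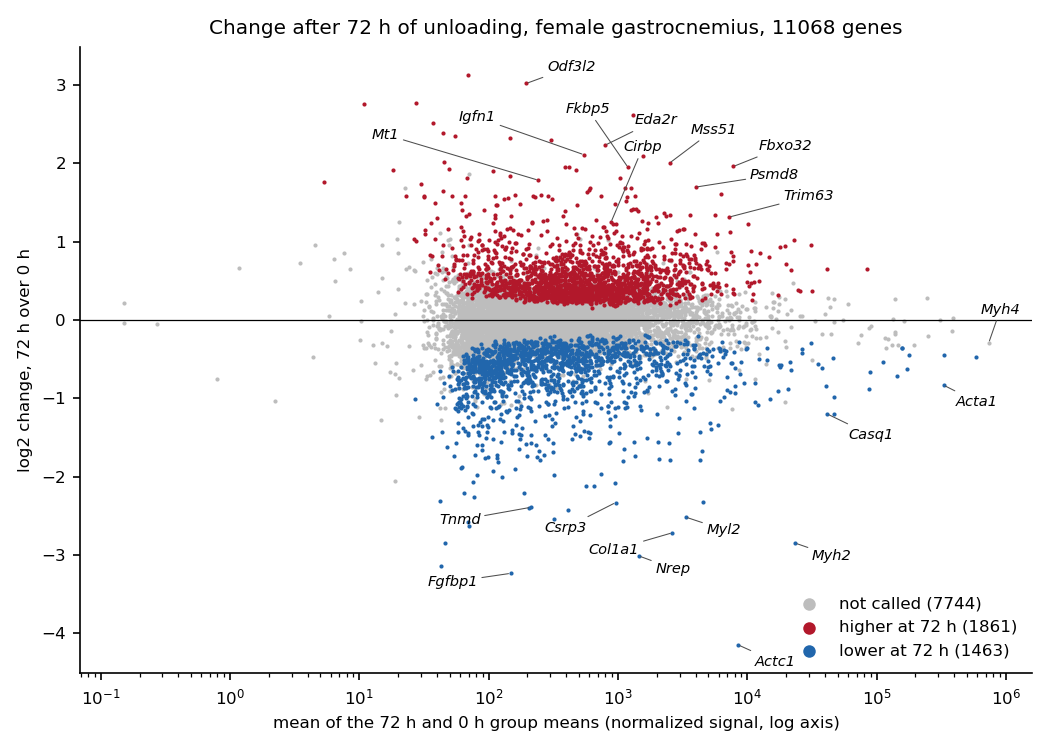
Log2 change of each of the 11068 genes at 72 h over 0 h (vertical axis) against the mean of the 72 h and 0 h group means of the normalized signal (horizontal axis, log scale). Red genes (1861) were called higher and blue genes (1463) lower at an adjusted p under 0.05, and the gene with the largest fall of those labelled is Actc1 at -4.15.

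In what follows, the 3 values given for a group are the lowest, the median and the highest normalized signal of its 8 libraries, and ± is the standard error of the log2 change. Counts of list members called are to be read beside the 16.8% called higher and 13.2% called lower over all genes. Fbxo32, which encodes the muscle ubiquitin ligase atrogin-1, had a signal of 3298, 8687 and 36863 at 72 h, against 1975, 2484 and 2846 at 0 h. All 8 unloaded libraries were above all 8 controls, but they spread over a much wider range, and the change was 1.96 ± 0.42 with an adjusted p of 5.21e-04. Trim63, which encodes the ligase MuRF1, had 4122, 6414 and 35857 at 72 h, against 2868, 3504 and 3929 at 0 h, again without overlap (log2 change 1.31 ± 0.39, adjusted p = 0.00971). Both ligases sit beside FoxO transcription factors in the list of 30 atrophy ligases and FoxO genes, of which 11 were higher and 4 lower, with a median change of 0.21. Foxo1 rose (log2 change 0.79 ± 0.27, adjusted p = 0.0256) and Foxo3 rose (log2 change 0.39 ± 0.13, adjusted p = 0.0195), the first without overlap between the groups and the second with it. Fbxo31, an F-box protein of a ubiquitin ligase complex, had 3436, 4278 and 5761 at 72 h, against 1949, 2204 and 2615 at 0 h, without overlap (log2 change 0.97 ± 0.12, adjusted p = 1.79e-07). Trim54, a relative of MuRF1 that binds microtubules and the sarcomere, rose by 0.69, and its relative Trim55 fell, with a log2 change of -0.52. Fbxl22, an F-box protein of the sarcomere Z-disc, was the member that fell furthest, with 8.17, 19.5 and 30.9 at 72 h, against 76.6, 114 and 175 at 0 h. Its change was -2.62 ± 0.35 with an adjusted p of 7.45e-07. Without replicate 4 of 72 h, the adjusted p of Foxo1 was 0.0717, and without replicate 1 or 4 that of Foxo3 was up to 0.0609.

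The promoter of Trim63 is shown because it holds the recognition letters of 2 regulators whose targets are described here, FoxO and the glucocorticoid receptor. It runs over the 250 bases before the RefSeq start at chr4:134314870-134315119, plus strand, GRCm38.p6, and the capitals mark, in order, a glucocorticoid receptor palindrome (GNACA and TGTNC with 3 bases of any kind between them, 208 bases before the start) and a FoxO site (GTAAACA, here as TGTTTAC on the other strand, 194 bases before the start).
Trim63: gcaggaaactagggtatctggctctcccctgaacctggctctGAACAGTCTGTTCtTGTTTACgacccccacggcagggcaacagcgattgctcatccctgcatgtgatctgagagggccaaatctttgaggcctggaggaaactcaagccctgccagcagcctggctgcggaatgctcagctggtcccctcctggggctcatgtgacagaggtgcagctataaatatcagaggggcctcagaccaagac
Both strands were searched. Of 32851 windows of this length before RefSeq starts, 3.17% held the FoxO site and 0.387% the palindrome. Of the 29 windows of 24 atrophy genes with a RefSeq entry, only that of Trim63 held the FoxO site. A match of letters is a description and shows no binding.

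Of the 32 measured subunits of the 26S proteasome 30 were higher and 0 lower, with a median log2 change of 0.88, and in 27 of them every 72 h library was above every 0 h library. Psmd8, a lid subunit of the regulatory particle, had a signal of 3665, 5511 and 9406 at 72 h, against 1510.1, 1907 and 2198 at 0 h (log2 change 1.70 ± 0.17, adjusted p = 3.14e-09). The lowest unloaded library was thus above the highest control. Psmd2, the large scaffold of the regulatory particle base, had 6477, 7884 and 10243 at 72 h, against 2752, 3147 and 3469 at 0 h (log2 change 1.35 ± 0.12, adjusted p = 2.39e-10). Psmc3, an ATPase that unfolds substrates, had 4716, 5737 and 7662 at 72 h, against 2671, 2897 and 3407 at 0 h (log2 change 0.99 ± 0.09, adjusted p = 7.77e-10). Psma7, of the outer alpha ring of the core, had 2313, 3348 and 4724 at 72 h, against 1176, 1314 and 1499 at 0 h (log2 change 1.32 ± 0.14, adjusted p = 9.24e-09). None of these subunits overlapped between the groups. By part of the particle, all 12 non-ATPase subunits of the regulatory particle rose (0.55 to 1.70), as did all 6 ATPases (0.79 to 1.24) and all 7 beta subunits of the core (0.54 to 1.15), while 5 of 7 alpha subunits did (0.32 to 1.32 over all 7). Of 10 genes of the immunoproteasome, the interferon-induced form of the particle, and of MHC class I, 0 were higher and 2 were lower, the activator subunit Psme1 with a log2 change of -0.59 and the catalytic subunit Psmb10 with -0.44. The call for Psmb10 (adjusted p = 0.0457) was lost under 13 of the other settings and libraries left out.

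Around the proteasome, 11 of 23 genes of ubiquitin transfer and protein unfolding were higher and 2 lower, with a median of 0.25. They included the partners of the segregase p97 that pull ubiquitin-tagged proteins out of complexes. Nploc4 had 1998, 3076 and 5468 at 72 h, against 1049, 1203 and 1370.4 at 0 h and Ufd1 had 1005, 1195 and 1711 at 72 h, against 659.7, 708 and 833 at 0 h. Neither overlapped between the groups, with log2 changes of 1.36 ± 0.20 with an adjusted p of 2.99e-06 and 0.79 ± 0.11 with an adjusted p of 9.18e-07. Nsfl1c, another p97 cofactor, rose by 0.82 and Ube2j1, a ubiquitin-conjugating enzyme of the endoplasmic reticulum, by 0.50. Vcp itself, which encodes p97, was among the 11. Autophagy genes moved the same way, with 17 of 28 higher, 1 lower (Ulk2, a kinase that starts autophagy) and a median of 0.34. Sqstm1, the p62 receptor that carries tagged cargo, had 7784, 13049.6 and 27786 at 72 h, against 4359.7, 5557 and 7824 at 0 h (log2 change 1.23 ± 0.20, adjusted p = 1.45e-05). Only the edges of the groups overlapped, the lowest unloaded library lying just below the highest control. Map1lc3b, the LC3 protein of the autophagosome membrane, had 3193, 4199.9 and 6296 at 72 h, against 2065, 2395 and 2812 at 0 h (log2 change 0.84 ± 0.12, adjusted p = 2.44e-06), without overlap. Optn, a second cargo receptor, rose by 0.68 and Tecpr1, which helps autophagosomes fuse with lysosomes, by 0.42. Of 31 lysosomal genes 11 were higher and 3 lower, with a median of 0.21. Ctsd, the protease cathepsin D, had 10167, 13485 and 18446 at 72 h, against 6625, 7342 and 9331 at 0 h, without overlap (log2 change 0.88 ± 0.13, adjusted p = 2.30e-06). Gaa, the enzyme that degrades glycogen in lysosomes, rose by 0.98 and Atp6v1d, a subunit of the acidifying proton pump, by 0.39. The members called lower were Ctsh, Ctsk and Gusb.

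**Figure D2:**
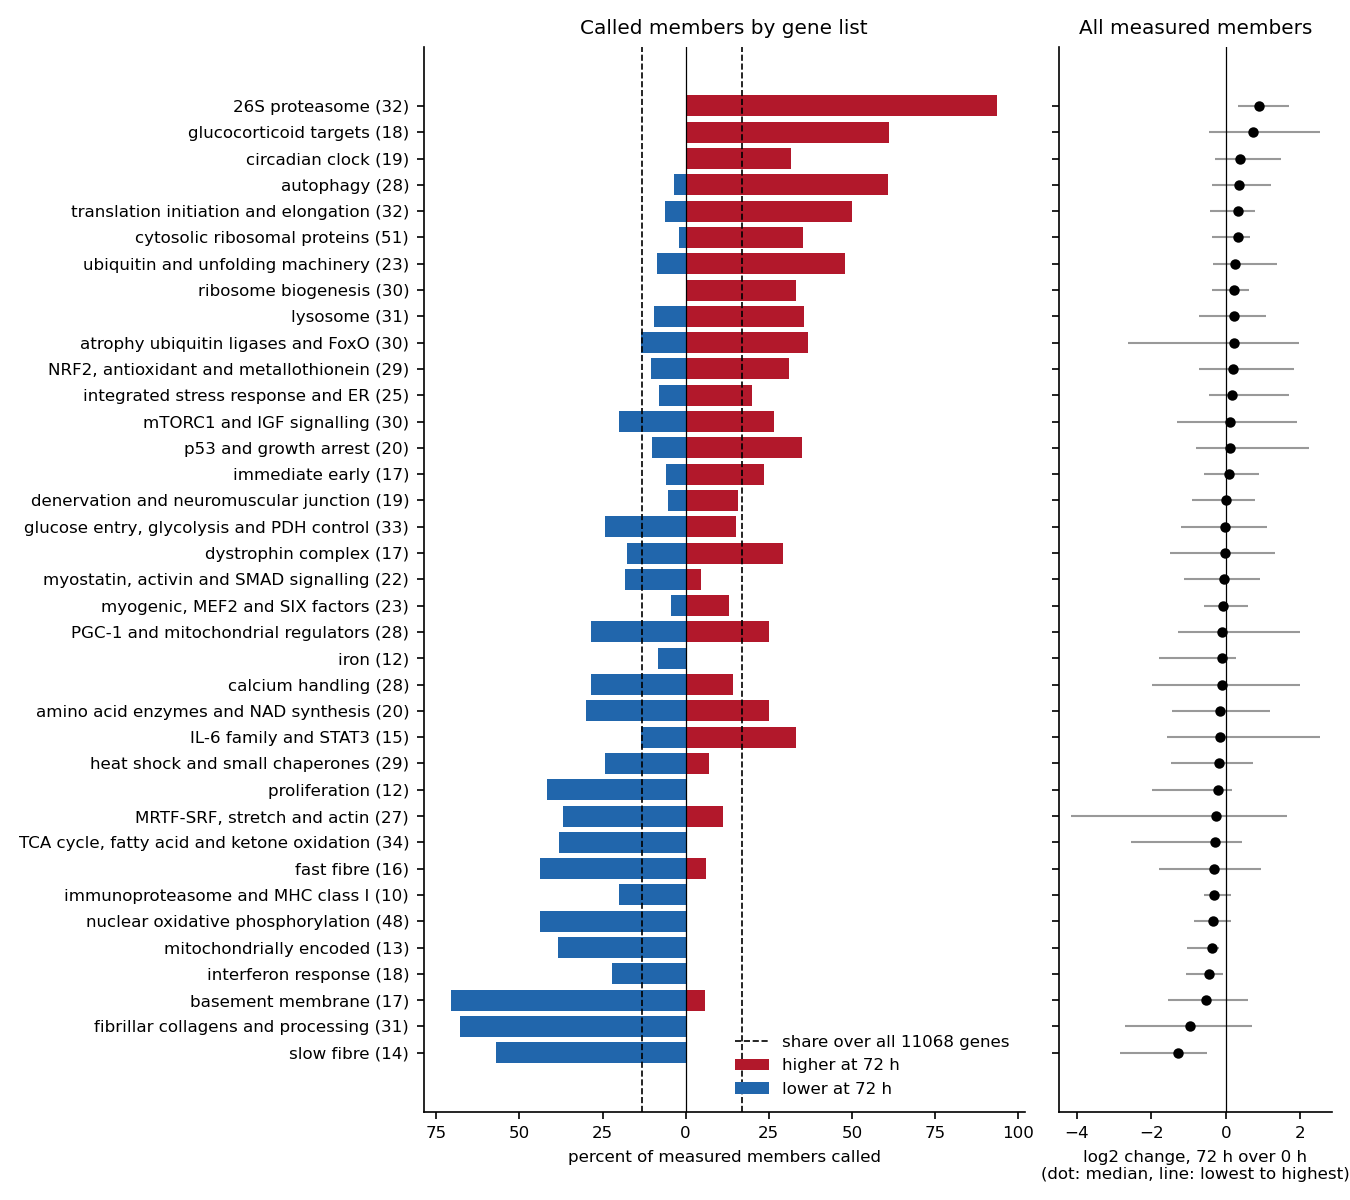
Left, percent of the measured members of each functional gene list (number in brackets) called higher (red, to the right) or lower (blue, to the left) at 72 h, with dashed lines at the shares over all 11068 genes (16.8% and 13.2%). Right, the log2 change of all measured members, as median (dot) and range (line): among lists of more than 2 genes the 26S proteasome has the largest share called higher and basement membrane genes the largest share called lower.

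Genes that glucocorticoids induce were higher in 11 of 18 cases and lower in 0, with a median of 0.74. Fkbp5, a chaperone of the glucocorticoid receptor and a standard readout of its activity, had 1198, 1835 and 2538 at 72 h, against 283, 331 and 1352 at 0 h (log2 change 1.95 ± 0.28, adjusted p = 2.04e-06). The control libraries spread widely, and the highest of them, 1352, exceeded the lowest unloaded one. Tsc22d3, the GILZ protein, had 2865, 4634 and 5723 at 72 h, against 1616, 1752 and 3239.9 at 0 h (log2 change 1.17 ± 0.17, adjusted p = 2.25e-06), also with overlap. Lcn2, the iron carrier lipocalin 2, was low in every library, with 20.6, 59.1 and 127 at 72 h, against 4.07, 8.52 and 20.7 at 0 h, and rose by 2.52. Ddit4, the REDD1 inhibitor of mTORC1, had 167, 485 and 2404 at 72 h, against 109.9, 134 and 399 at 0 h and rose by 1.91 ± 0.49, the highest control being above the lowest unloaded libraries. Of 25 promoter windows of 14 of these genes, 3 held the palindrome of the glucocorticoid receptor, all of Fam107a and Sgk1, both called higher.

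The clock list, with 6 of 19 higher and 0 lower (median 0.38), shares Per1 with the glucocorticoid list. Per1, a clock repressor, had 913, 1314 and 1866 at 72 h, against 182, 458 and 1281 at 0 h (log2 change 1.49 ± 0.26, adjusted p = 3.58e-05), with overlap. Cry2, a second repressor, rose by 1.23. The time of day of collection is not given in the labels, so its part in these values was not tested. The 2 RNA-binding proteins known to be induced by mild cold both rose: Cirbp had 968, 1196 and 1706 at 72 h, against 425, 507 and 676 at 0 h (log2 change 1.25 ± 0.11, adjusted p = 3.74e-10), and Rbm3 had 1499, 1839 and 2162 at 72 h, against 379, 613 and 1177 at 0 h (log2 change 1.41 ± 0.16, adjusted p = 4.21e-08). In neither gene did the groups overlap. Of 20 p53 and growth arrest genes 7 were higher and 2 lower, with a median of 0.11. Cdkn1a, the p21 inhibitor of the cell cycle, had 489, 1089 and 1677 at 72 h, against 214, 336 and 686 at 0 h (log2 change 1.59 ± 0.29, adjusted p = 7.77e-05), with overlap. Eda2r, a receptor of the TNF receptor family, had 323, 1229.6 and 2643 at 72 h, against 154, 237 and 347 at 0 h (log2 change 2.23 ± 0.34, adjusted p = 4.11e-06), the lowest unloaded library lying just below the highest control. Phlda3, an inhibitor of Akt signalling, rose by 1.13 without overlap. Ccng1, a p53 target of the cyclin G family, went the other way, with a log2 change of -0.81.

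**Figure D3:**
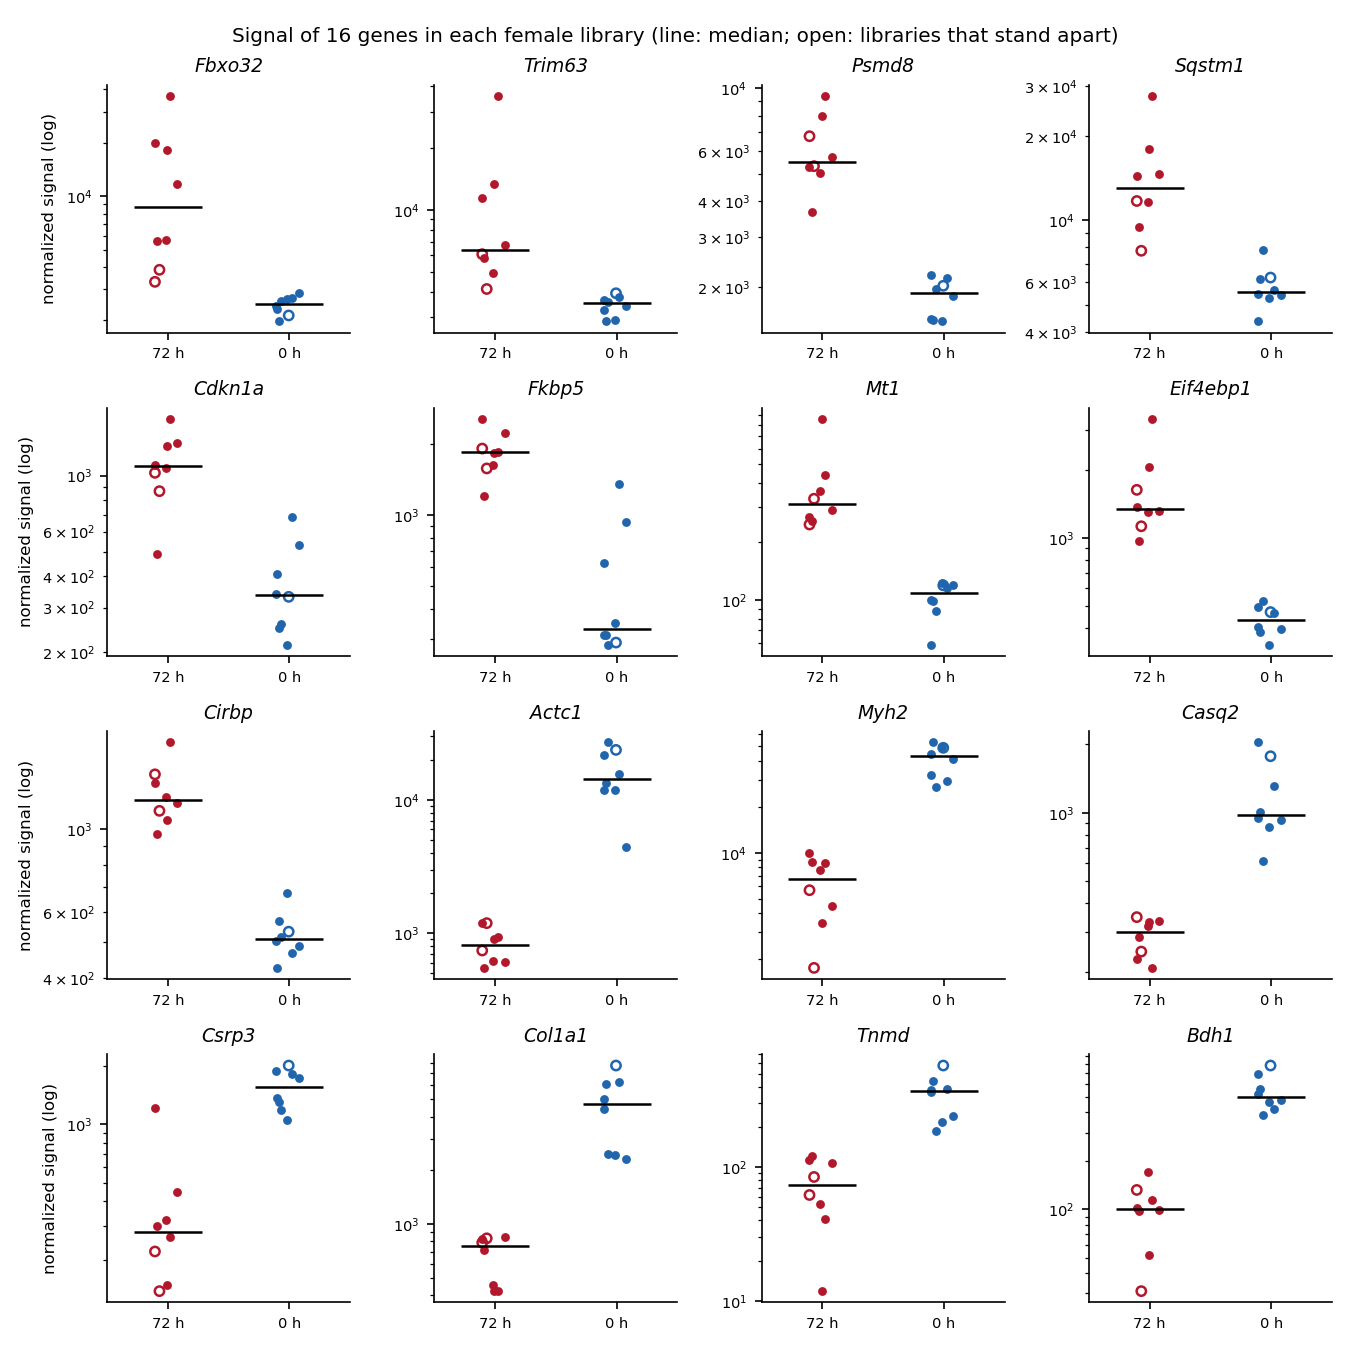
Normalized signal (log axes) of 16 genes in each of the 8 libraries of 72 h (red, left) and of 0 h (blue, right), with the median as a line and the 3 libraries that stood apart as open circles. Psmd8, Cirbp, Actc1, Myh2 and Col1a1 have no overlap between the groups, while Cdkn1a and Csrp3 do.

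Signalling to protein synthesis had members on both sides, with 8 of 30 mTORC1 and IGF genes higher and 6 lower (median 0.12). With libraries scaled to the same sum 13 were higher and 5 lower, and after quantile normalization 5 and 6. Eif4ebp1, the 4E-BP1 repressor of cap-dependent translation, had 970.3, 1339 and 3349 at 72 h, against 338, 435 and 526 at 0 h (log2 change 1.82 ± 0.25, adjusted p = 8.25e-07). The groups were far apart. Akt1, the kinase downstream of insulin and IGF receptors, had 1245, 1467 and 2449 at 72 h, against 651, 798 and 963 at 0 h, without overlap (log2 change 1.07 ± 0.20, adjusted p = 8.45e-05). Igf2, a growth factor, had 229.6, 265 and 304 at 72 h, against 388, 444 and 476 at 0 h, every unloaded library lying below every control (log2 change -0.74 ± 0.11, adjusted p = 2.17e-06). Igfbp3, which binds IGFs, rose by 1.18, and Igf1, Igfbp5, Igfbp7, Irs1 and Deptor were among the genes called lower. The gene of myostatin itself, Mstn, a secreted brake on muscle growth, was not called, with 461, 920.2 and 1177 at 72 h, against 486, 1127 and 1383 at 0 h (log2 change -0.16 ± 0.25, adjusted p = 0.676). Of 22 genes of the myostatin, activin and SMAD route 1 was higher and 4 lower. The one higher was Acvr1b, a type I receptor (0.91), and the largest fall was that of Fstl1, a secreted glycoprotein (-1.11).

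Genes of translation that passed the test were higher with few exceptions, while many did not pass it. Of 32 initiation and elongation factors 16 were higher and 2 lower (median 0.33), of 51 cytosolic ribosomal protein genes 18 were higher and 1 lower (median 0.32), and of 30 ribosome biogenesis genes 10 were higher and 0 lower (median 0.23). Eif3c, a subunit of the initiation factor eIF3, had 2822, 3327 and 4144 at 72 h, against 1826, 2235 and 2444 at 0 h (log2 change 0.65 ± 0.08, adjusted p = 1.67e-07). Eif4b, which stimulates the helicase that opens the 5′ end of mRNAs, had 4479.96, 6318 and 7690.2 at 72 h, against 3269, 3619 and 3961 at 0 h (log2 change 0.75 ± 0.12, adjusted p = 9.89e-06). Neither overlapped. The 2 factors that were lower were Pabpc4 and Eif4e, and the ribosomal protein that was lower was Rpl3l, the form of Rpl3 specific to striated muscle. Rps18 rose by 0.58, Rpl4 by 0.48 and Bop1, needed to process the large subunit's RNA, by 0.62. Ribosomal protein genes have many near-identical pseudogene copies, so their values are uncertain where reads were shared. Their count depends on the scaling and the libraries. It rose to 30 of 51 called higher without the libraries that stood apart, and to 29 when libraries were scaled to the same sum. It fell to 14 after quantile normalization and to 15 when libraries were thinned to the depth of the shallowest.

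In the contractile apparatus, the slow fibre genes formed the group with the lowest median, -1.29, with 0 of 14 higher and 8 lower. Myh2, the myosin heavy chain of oxidative fast (type 2A) fibres, had 1749.8, 6697 and 9903 at 72 h, against 27261, 42994 and 53252 at 0 h. All 8 unloaded libraries were far below all controls, a change of -2.85 ± 0.42 with an adjusted p of 3.17e-06. Myl2, the slow regulatory light chain, had 158, 1014 and 2001 at 72 h, against 3544, 4949 and 9796 at 0 h (log2 change -2.51 ± 0.56, adjusted p = 7.01e-04), without overlap. Csrp3, the muscle LIM protein of the Z-disc, had 138, 279.9 and 1215 at 72 h, against 1052, 1543 and 2000.5 at 0 h (log2 change -2.33 ± 0.46, adjusted p = 1.86e-04), and a single unloaded library reached the control range. Casq2, the calcium buffer of slow fibres, had 208, 299.8 and 347 at 72 h, against 613, 978 and 2040.3 at 0 h (log2 change -1.97 ± 0.26, adjusted p = 6.14e-07), and Fabp3, a fatty acid carrier, had a log2 change of -1.44. Myh7, the type 1 heavy chain, was not called, with 715, 4982 and 7998 at 72 h, against 3571, 10421 and 18202 at 0 h (log2 change -1.13 ± 0.60, adjusted p = 0.158). Replicate 2 of 72 h, one of the libraries that stood apart, held the lowest value of both Myl2 and Myh7.

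The heavy chains of type 2B and type 2X fibres did not pass the test. Myh4, of type 2B fibres, had 346343, 701465 and 869109 at 72 h, against 576269, 824780 and 1004850 at 0 h (log2 change -0.29 ± 0.16, adjusted p = 0.178), and Myh1, of type 2X fibres, had 25892, 55193 and 70367 at 72 h, against 32219, 36738 and 62197 at 0 h (log2 change 0.28 ± 0.32, adjusted p = 0.556). Other fast fibre genes were lower, 7 of 16 with 1 higher and a median of -0.30. Myl1, the fast essential light chain, had 37654, 62033 and 93179.9 at 72 h, against 87789, 107241 and 152605 at 0 h (log2 change -0.88 ± 0.17, adjusted p = 1.36e-04). Casq1, the fast calcium buffer, had 14837, 25151 and 38996 at 72 h, against 50514, 54729.8 and 72233 at 0 h (log2 change -1.20 ± 0.21, adjusted p = 3.20e-05), without overlap. Mybph, a thick filament protein, had a log2 change of -1.78. The one gene higher was Mylk2, the kinase of the fast regulatory light chain, with 13197, 26082 and 34090 at 72 h, against 9309.6, 13520 and 17697 at 0 h (log2 change 0.94 ± 0.15, adjusted p = 5.87e-06). After quantile normalization 4 of the 16 fast fibre genes were higher and 6 lower, with a median of -0.06, so the balance of this list depends on the scaling. Of 28 calcium handling genes 4 were higher and 8 lower (median -0.10), the share higher being below the 16.8% over all genes. The highest change in this list, 2.01, is the value of Mss51, which is given below with the regulators of mitochondria. Nos1, the neuronal nitric oxide synthase of the muscle membrane, had 1781, 2870.1 and 3579 at 72 h, against 926, 1049.8 and 1393 at 0 h, without overlap (log2 change 1.31 ± 0.24, adjusted p = 8.16e-05). Sypl2, mitsugumin 29 of the triad junction, had a change of -1.39. Sln, an inhibitor of the calcium pump, had 45.1, 65.1 and 83.5 at 72 h, against 17.3, 32.4 and 52.8 at 0 h and was not called (log2 change 0.95 ± 0.42, adjusted p = 0.0823).

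Actin and stretch genes controlled by serum response factor (SRF) and its coactivators of the MRTF family were lower in 10 of 27 cases and higher in 3, with a median of -0.27. Actc1, cardiac alpha-actin, showed the largest fall among the genes named by the selection rule, with 549, 822 and 1189 at 72 h, against 4399, 14458 and 27088 at 0 h (log2 change -4.15 ± 0.41, adjusted p = 4.02e-09). The highest unloaded library was below the lowest control by a wide margin. Actg1, cytoplasmic gamma-actin, had 1133, 1848 and 2111 at 72 h, against 3333, 4189 and 4817 at 0 h (log2 change -1.25 ± 0.13, adjusted p = 1.01e-08). Acta1, the main skeletal alpha-actin, had 173398, 227450 and 325354 at 72 h, against 342864, 424906 and 508742 at 0 h (log2 change -0.83 ± 0.14, adjusted p = 1.79e-05). None of the 3 actins overlapped between the groups. Ankrd2, a stretch-responsive ankyrin repeat protein, had 169, 339 and 772 at 72 h, against 913, 1497 and 1980.2 at 0 h (log2 change -2.08 ± 0.37, adjusted p = 6.13e-05). The 3 higher genes were Ccn1 and Ccn2, secreted matrix proteins, and Nrap, an actin-binding protein of forming myofibrils. Ccn1 had 611, 865 and 1549 at 72 h, against 171, 304 and 364 at 0 h (log2 change 1.66 ± 0.17, adjusted p = 9.24e-09) and Nrap 29251, 38048 and 62531 at 72 h, against 17286, 21085 and 22762 at 0 h (log2 change 0.96 ± 0.16, adjusted p = 1.41e-05), both without overlap.

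The promoters of the 3 actins are shown because all 3 genes fell and each holds, within 250 bases before its RefSeq start (GRCm38.p6), the CArG box, the recognition motif of SRF, in capitals.
Actc1: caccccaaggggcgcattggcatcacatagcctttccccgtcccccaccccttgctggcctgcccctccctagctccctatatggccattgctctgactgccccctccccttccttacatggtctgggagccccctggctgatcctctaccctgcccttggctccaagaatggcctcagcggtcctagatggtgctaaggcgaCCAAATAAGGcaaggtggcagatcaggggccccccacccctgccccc
Actg1: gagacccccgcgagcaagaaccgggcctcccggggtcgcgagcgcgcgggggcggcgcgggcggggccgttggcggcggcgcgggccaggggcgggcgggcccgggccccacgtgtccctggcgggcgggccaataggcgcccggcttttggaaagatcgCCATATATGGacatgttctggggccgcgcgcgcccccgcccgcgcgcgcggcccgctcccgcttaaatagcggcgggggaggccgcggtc
Acta1: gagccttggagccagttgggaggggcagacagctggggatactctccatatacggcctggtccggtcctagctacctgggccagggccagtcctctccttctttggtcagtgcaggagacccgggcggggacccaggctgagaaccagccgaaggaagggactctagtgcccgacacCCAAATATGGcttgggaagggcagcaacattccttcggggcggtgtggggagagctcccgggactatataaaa
They lie on the minus strand at chr2:114052876-114053125, chr11:120348496-120348745 and chr8:123894776-123895025, and the box starts 47, 90 and 73 bases before the start in Actc1, Actg1 and Acta1. Of the 32851 windows, 1.47% held a CArG box on either strand. Of 30 windows of 22 members of the list, 8 did, in 7 genes: the 3 actins, Fhl1, Fhl2 and Srf, which were all called lower, and Vcl, which was not called. These matches are letters in a window and do not show that SRF was bound.

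At the neuromuscular junction and in the denervation list, 3 of 19 genes were higher and 1 lower, with a median near 0. Both shares were below those over all genes, 16.8% and 13.2%. Chrnb1, the beta subunit of the acetylcholine receptor, had 951, 1002 and 1057 at 72 h, against 467, 555 and 721 at 0 h (log2 change 0.79 ± 0.11, adjusted p = 2.25e-06), without overlap. Rapsn, which clusters the receptor, rose by 0.39, and the deacetylase Hdac4, which is induced by denervation, by 0.45. Its relative Hdac9 had a change of -0.91. Thinned to the depth of the shallowest library, Rapsn and Hdac9 were not called (adjusted p = 0.102 and 0.0818). Chrna1, the alpha subunit that rises sharply after denervation, was not called, with 237, 290.3 and 387 at 72 h, against 234, 276 and 319.9 at 0 h (log2 change 0.11 ± 0.13, adjusted p = 0.559). Of 23 genes of myogenic transcription factors, their cofactors and a muscle noncoding RNA, 3 were higher (Tbx15, Myf6 and Mef2d) and 1 lower (Tead1). In the dystrophin complex 5 of 17 were higher and 3 lower. Itga7, the laminin receptor of muscle, rose by 0.56 and Dysf, the membrane repair protein dysferlin, by 0.51, while Dtna, alpha-dystrobrevin, had -0.44.

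Nuclear genes of oxidative phosphorylation were lower in 21 of 48 cases and higher in 0, with a median of -0.35. By complex, 9 of 21 genes of complex I, 3 of 4 of complex II, 4 of 7 of complex III with cytochrome c, 2 of 9 of complex IV and 3 of 7 of ATP synthase were lower. Cycs, cytochrome c, had 954, 1192 and 1702 at 72 h, against 2002, 2152 and 2672 at 0 h (log2 change -0.85 ± 0.15, adjusted p = 5.60e-05). Sdhd, an anchor subunit of complex II, had 2544, 2903 and 4134 at 72 h, against 4228, 4542 and 5091 at 0 h (log2 change -0.59 ± 0.12, adjusted p = 2.76e-04). Ndufs1, the largest subunit of complex I, had 4029, 4851 and 5913 at 72 h, against 6163, 6924 and 8238 at 0 h (log2 change -0.55 ± 0.11, adjusted p = 3.94e-04). Every unloaded library lay below every control in these genes. The count was 35 of 48 without the libraries that stood apart and 16 of 48 with libraries scaled to the same sum. The transcripts of the mitochondrial genome itself were lower in 5 of 13 cases, with overlap in each, for example mt-Co1, a subunit of complex IV, with 276920, 530285 and 636318 at 72 h, against 391685, 700252 and 844914 at 0 h (log2 change -0.48 ± 0.17, adjusted p = 0.0302). Its call was lost under 8 of the other settings and libraries left out, and after quantile normalization its log2 change was -0.13 (adjusted p = 0.627). The count was 2 of 13 in a fit of the 16 libraries alone and 1 of 13 after quantile normalization. Control replicate 7, which had the low mitochondrial share, was the lowest control for mt-Co1.

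Of 34 genes of the TCA cycle and of fatty acid and ketone oxidation, 13 were lower and 0 higher (median -0.28). The ketone enzymes changed most. Bdh1, which interconverts the ketone bodies, had 31.0, 101.04 and 171 at 72 h, against 386, 499.8 and 783 at 0 h (log2 change -2.54 ± 0.40, adjusted p = 8.15e-06). Oxct1, which activates ketones for oxidation, had 1660.02, 2403 and 2967 at 72 h, against 5417, 6179.9 and 7456 at 0 h (log2 change -1.42 ± 0.17, adjusted p = 6.56e-08). Both were without overlap, as was Idh3a, of the TCA cycle (-0.61). With array weights 20 of the 34 were lower, and with libraries scaled to the same sum 9. Among regulators of mitochondria 7 of 28 were higher and 8 lower. Ppargc1a, the coactivator PGC-1alpha, was not called, with 148, 395 and 507 at 72 h, against 196, 429 and 588 at 0 h (log2 change -0.17 ± 0.23, adjusted p = 0.611), while Ppargc1b, Perm1, Esrra, Esrrg and Ppara were among those called lower. Sirt3, the mitochondrial deacetylase, had 99.1, 196 and 241 at 72 h, against 267, 315 and 413 at 0 h (log2 change -0.78 ± 0.14, adjusted p = 7.19e-05). Mss51, a mitochondrial protein of fast muscle, had 759.6, 4733 and 5999.7 at 72 h, against 533, 720.4 and 2083 at 0 h (log2 change 2.01 ± 0.43, adjusted p = 5.71e-04), with overlap from 1 low unloaded library.

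Glucose genes split, with 5 of 33 higher and 8 lower, so the share higher was below the 16.8% over all genes. With libraries scaled to the same sum 10 were higher and 8 lower. Gbe1, the glycogen branching enzyme, had 1349.6, 1862 and 2879.7 at 72 h, against 670.1, 875 and 1185 at 0 h (log2 change 1.11 ± 0.17, adjusted p = 5.69e-06), without overlap, and Tbc1d1, which governs glucose transporter traffic, rose by 1.03. Pgam2, the muscle phosphoglycerate mutase, had -0.88, and Ldha, Pgk1, Tpi1 and Eno3 were also lower. Of 20 amino acid and NAD enzymes 5 were higher and 6 lower (median -0.14). Prodh, which starts proline breakdown, had 156, 201 and 239.7 at 72 h, against 64.2, 80.8 and 132 at 0 h (log2 change 1.18 ± 0.16, adjusted p = 9.81e-07), without overlap. Gpt2, the mitochondrial alanine aminotransferase, rose by 0.93 and Glul, glutamine synthetase, by 0.83. Nmrk2, a muscle kinase of NAD synthesis, had 126, 258 and 916 at 72 h, against 407, 743 and 2027 at 0 h (log2 change -1.44 ± 0.40, adjusted p = 0.00586), with overlap.

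Of 29 genes of NRF2, antioxidant and metallothionein function 9 were higher and 3 lower (median 0.19). The zinc-binding metallothioneins Mt1 and Mt2 had 245, 311 and 854 at 72 h, against 59.1, 108.3 and 122 at 0 h, and 98.5, 192 and 639.99 at 72 h, against 36.4, 56.3 and 84.8 at 0 h. Neither overlapped, with changes of 1.79 ± 0.28 with an adjusted p of 1.05e-05 and 1.84 ± 0.36 with an adjusted p of 1.47e-04. Sod1, the cytosolic superoxide dismutase, rose (log2 change 0.92 ± 0.14, adjusted p = 3.42e-06) and Sod2, the mitochondrial one, fell (log2 change -0.51 ± 0.09, adjusted p = 3.06e-05), both without overlap. Heat shock proteins and small chaperones were lower in 7 of 29 cases and higher in 2 (median -0.18). Cryab, alphaB-crystallin, had 3947, 4886 and 6439 at 72 h, against 7837, 9113 and 14224 at 0 h (log2 change -0.92 ± 0.19, adjusted p = 4.00e-04), and Hspb6, HSP20, had -0.72. Hsp90ab1, cytosolic HSP90 beta, had 21176, 24608 and 31919 at 72 h, against 12729.9, 14899 and 17639.6 at 0 h (log2 change 0.72 ± 0.12, adjusted p = 1.68e-05). The lower count was 3 of 29 with libraries scaled to the same sum and 11 of 29 after adjustment for GC content. In the integrated stress response 5 of 25 were higher and 2 lower, and 11 and 3 without the libraries that stood apart. Ppp1r15a, GADD34, which reverses the block on translation, had 806, 1559 and 3726 at 72 h, against 361, 503 and 659 at 0 h (log2 change 1.68 ± 0.29, adjusted p = 3.36e-05), without overlap. Chac1, which degrades glutathione, ranged widely in both groups, with 358, 689 and 1894 at 72 h, against 41.1, 274 and 981 at 0 h (log2 change 1.69 ± 0.44, adjusted p = 0.00348).

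Of 15 genes of the IL-6 family and STAT3, 5 were higher and 2 lower. Socs2, an inhibitor of growth hormone signalling, had 89.5, 149 and 236 at 72 h, against 319, 488 and 622 at 0 h (log2 change -1.57 ± 0.24, adjusted p = 5.48e-06), without overlap. Il6ra, the IL-6 receptor alpha chain, rose by 1.48 and the kinase Pim1 by 1.14. Among immediate early genes 4 of 17 were higher (Ier3, Jun, Maff and Klf6) and 1 lower (Jund). Interferon response genes were lower in 4 of 18 cases and higher in 0, with overlap in each (among them Oasl2 -0.88, Irf9 -0.53 and Ddx58 -0.45), and the call for Ddx58 was lost under 11 of the other settings and libraries left out. Tfrc, the transferrin receptor, was the only one of 12 iron genes called, with 261, 1057 and 1691 at 72 h, against 1177, 3159 and 5217 at 0 h (log2 change -1.78 ± 0.36, adjusted p = 2.84e-04).

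The extracellular matrix fell broadly. Of 31 fibrillar collagens, matrix proteins and collagen-processing enzymes 21 were lower and 0 higher, with a median of -0.96, and in 12 every unloaded library was below every control. Col1a1 and Col1a2 encode the 2 chains of type I collagen, the main fibre of tendon and muscle connective tissue. Col1a1 had 420.3, 749.9 and 849.7 at 72 h, against 2325, 4711 and 7740.4 at 0 h (log2 change -2.72 ± 0.33, adjusted p = 1.50e-07), and Col1a2 had 906, 1571 and 1988 at 72 h, against 3728, 8032 and 12809 at 0 h (log2 change -2.32 ± 0.32, adjusted p = 1.04e-06). The groups were far apart in both. Serpinh1, HSP47, the collagen chaperone, had 372, 566 and 716 at 72 h, against 899.9, 1371 and 1684 at 0 h (log2 change -1.22 ± 0.14, adjusted p = 3.33e-08). P4ha1, which hydroxylates prolines in collagen, had 261, 358 and 479 at 72 h, against 530.01, 669.9 and 846 at 0 h (log2 change -0.91 ± 0.10, adjusted p = 3.51e-08). Fn1, fibronectin, had a change of -1.56, also without overlap. The basement membrane list followed, with 12 of 17 lower and 1 higher (Lama5), and a median of -0.53. Col15a1, a collagen of the zone around muscle fibres, had 138, 282 and 397 at 72 h, against 499, 721 and 1088 at 0 h (log2 change -1.48 ± 0.20, adjusted p = 7.04e-07). Col6a2, a chain of type VI collagen, had 239, 440.4 and 641 at 72 h, against 784, 1249.5 and 1816 at 0 h (log2 change -1.55 ± 0.22, adjusted p = 2.02e-06), and the endothelial and epithelial collagen Col18a1 had -1.29. Mfap4, a microfibril protein, had -2.01.

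Markers of tenocytes and of red blood cells were lower beside the matrix genes, and the other marker lists had a smaller share of their measured members called. Of 7 measured tenocyte markers 6 were lower, Mkx had no row, and their summed signal was 2746 to 5458 at 72 h, against 4626 to 11511 at 0 h. Tnmd, tenomodulin, had 11.8, 73.2 and 121 at 72 h, against 185, 371 and 576 at 0 h (log2 change -2.39 ± 0.37, adjusted p = 7.65e-06), and Kera, keratocan, had 20.3, 58.8 and 111 at 72 h, against 141, 293 and 658 at 0 h (log2 change -2.40 ± 0.36, adjusted p = 4.70e-06), both without overlap. Of 9 markers of fibro-adipogenic progenitors, the fibroblasts of muscle, 5 were lower, with a sum of 26745 to 39627 at 72 h, against 27091 to 41117 at 0 h. Dpt, dermatopontin, had a change of -0.85, and Clec3b, Cd34, Pi16 and Dpp4 were the others called. All 5 measured red blood cell genes were lower, 3 of them with array weights, with a sum of 6294 to 13485 at 72 h, against 9739 to 31954 at 0 h. Hbb-bs, an adult beta-globin chain whose reads can be shared with its near copy Hbb-bt, had 3056, 4121 and 6350.5 at 72 h, against 4778, 8311 and 15743 at 0 h (log2 change -0.98 ± 0.28, adjusted p = 0.00754). Of 11 endothelial markers 2 were lower, Kdr, the VEGF receptor (-0.94), and Emcn (-0.51), whose call was lost under 4 of the other settings and libraries left out. Mrc1 was the only one of 11 macrophage markers called (-0.90), and the adipocyte list had Car3 and Lpl lower and Lep higher, of 10. None of 4 Schwann cell markers was called, and 6 others, Sox10 and S100b among them, had no row. No measured marker was at 0 in all 16 libraries. Every gene with a row reached a signal of about 100 in some library, so this does not show that a cell type was present. In bulk muscle, fewer cells of a type and less RNA per cell cannot be told apart, and the part of these cells in the matrix result was not tested.

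Satellite cell and cell cycle genes were sparse. Pax7, Myf5, Calcr and Vcam1 had no row among the genes analysed. Of the 4 measured satellite cell markers Cdh15, M-cadherin, was the one called, with 432, 507 and 598 at 72 h, against 251, 296 and 319 at 0 h (log2 change 0.83 ± 0.09, adjusted p = 4.00e-08). Its groups did not overlap. Of 12 measured proliferation genes 5 were lower and 0 higher. Ccnd1, cyclin D1, had 10.3, 33.0 and 65.7 at 72 h, against 69.99, 144 and 171 at 0 h (log2 change -1.97 ± 0.28, adjusted p = 1.50e-06), without overlap. Ccnd2 and Mcm2 had changes of -1.03 and -0.91.

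Among the largest changes were genes outside these groups. Odf3l2, a gene named for its likeness to a sperm tail protein, had 92.8, 327 and 625 at 72 h, against 18.0, 30.6 and 77.6 at 0 h (log2 change 3.02 ± 0.52, adjusted p = 2.96e-05). Every unloaded library was above every control. Arrdc2, an arrestin-domain protein, had 1038, 2235 and 3154 at 72 h, against 106, 277 and 1509 at 0 h (log2 change 2.62 ± 0.34, adjusted p = 3.48e-07), with overlap from a high control. Inmt, a methyltransferase of small amines, had 427, 559 and 1273 at 72 h, against 101.8, 161 and 241 at 0 h (log2 change 1.95 ± 0.20, adjusted p = 4.16e-09). Igfn1, an immunoglobulin-domain protein of the sarcomere, had 409, 924 and 1221 at 72 h, against 101.5, 215 and 309 at 0 h (log2 change 2.11 ± 0.31, adjusted p = 3.17e-06), and Ctxn3 had 1154, 2599 and 3539.98 at 72 h, against 455, 599 and 685 at 0 h (log2 change 2.09 ± 0.24, adjusted p = 4.76e-08). These 3 genes were without overlap. On the other side, Nrep had 181, 326 and 495 at 72 h, against 2119.9, 2612 and 2808 at 0 h (log2 change -3.01 ± 0.23, adjusted p = 2.04e-11), and Fgfbp1, a carrier of fibroblast growth factors, had 8.44, 31.6 and 52.7 at 72 h, against 199.9, 273 and 352 at 0 h (log2 change -3.23 ± 0.29, adjusted p = 3.74e-10). Both were without overlap and had small standard errors. Mettl21c, a lysine methyltransferase of muscle, had 77.6, 242 and 430.2 at 72 h, against 755, 1013 and 1289 at 0 h (log2 change -2.12 ± 0.26, adjusted p = 1.57e-07), and Tceal7 had -1.98.

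Set against the first day of unloading, 710 genes were higher at 72 h than at 24 h and 648 lower, 6.41% and 5.85% of the genes tested. The 24 h and 72 h libraries share a style of sequencing numbers and a low depth. Actc1 was further below, by -3.11 on the log2 scale (adjusted p = 1.56e-05), as were Myh2 (-2.31, adjusted p = 4.90e-04) and Myl2 (-2.07, adjusted p = 0.0120). The oxidative genes also stood lower than on the first day, 30 of 48 nuclear genes of oxidative phosphorylation and 26 of 34 of the TCA cycle, fatty acid and ketone list, with 0 higher in either. Without the libraries that stood apart these counts were 23 and 24, and with libraries scaled to the same sum 17 and 15. Of the 32 proteasome subunits 9 were higher at 72 h than at 24 h and 0 lower. Others that were lower were Slc25a34, a mitochondrial carrier (-2.18), Cish, a suppressor of cytokine signalling (-2.17), and Mettl21e, a muscle methyltransferase (-2.07). Higher at 72 h were Igfn1 (1.82), the fat synthesis enzymes Fasn (1.62) and Scd1 (1.40), the stretch-responsive Ankrd1 (1.54), Fgf6, a growth factor of muscle (1.27), and Mss51 (1.27). Fasn, Scd1, Fgf6 and Ankrd1 were not called against 0 h, with log2 changes of 0.21, 0.61, 0.04 and 1.10. The numbers rest on the libraries and the scaling: 358 higher and 458 lower without those that stood apart, and 1807 and 311 with libraries scaled to the same sum.

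Against 48 h the differences were few, 39 genes higher and 27 lower (0.352% and 0.244% of the genes tested), although 1632 genes had an unadjusted p under 0.05. The 48 h libraries held 26.3 to 48.0 M reads, and their sequencing numbers run on into those of 0 h. Depth and sequencing set therefore cannot be told apart from time here either. Across genes, the Spearman correlation of GC content with the log2 change was 0.48, where it was 0.34 against 24 h and 0.11 against 0 h. Mrtfa, the coactivator of SRF, was higher at 72 h than at 48 h (1.18 ± 0.29, adjusted p = 0.0448), as were Cited4, a transcription coregulator (1.33), and Mafa, a transcription factor (0.89). Lower were Gadd45a, a stress gene of growth arrest (-1.23), Idh1, the cytosolic isocitrate dehydrogenase (-0.59), Hspa8, the constitutive HSP70 (-0.67), and Net1, an activator of RhoA (-0.79). Without the libraries that stood apart 12 genes were higher and 43 lower, and after adjustment for GC content 6 and 14.

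All times were set against the same 0 h libraries, so their changes share these controls and are given side by side. Fbxo32 changed by 2.49, 3.16, 1.96 and 1.21 at 24, 48, 72 and 168 h. Psmd8 changed by 1.21, 1.68, 1.70 and 0.82. Actc1 changed by -1.04, -2.65, -4.15 and -3.23, with its lowest value at 72 h. Col1a1 changed by -1.33, -2.21, -2.72 and -2.01, and Myh2 by -0.54, -2.28, -2.85 and -1.99, both also lowest at 72 h. Nos1 was near its control level at 24 h and 168 h, with 0.09, 1.47, 1.31 and 0.21. Over all 11068 genes, 24.7% were called at 24 h, 38.1% at 48 h and 10.7% at 168 h (6.30% higher and 4.38% lower), beside the 30.0% at 72 h. Depth also differed between these groups, and its part in these shares was not tested.

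**Figure D4:**
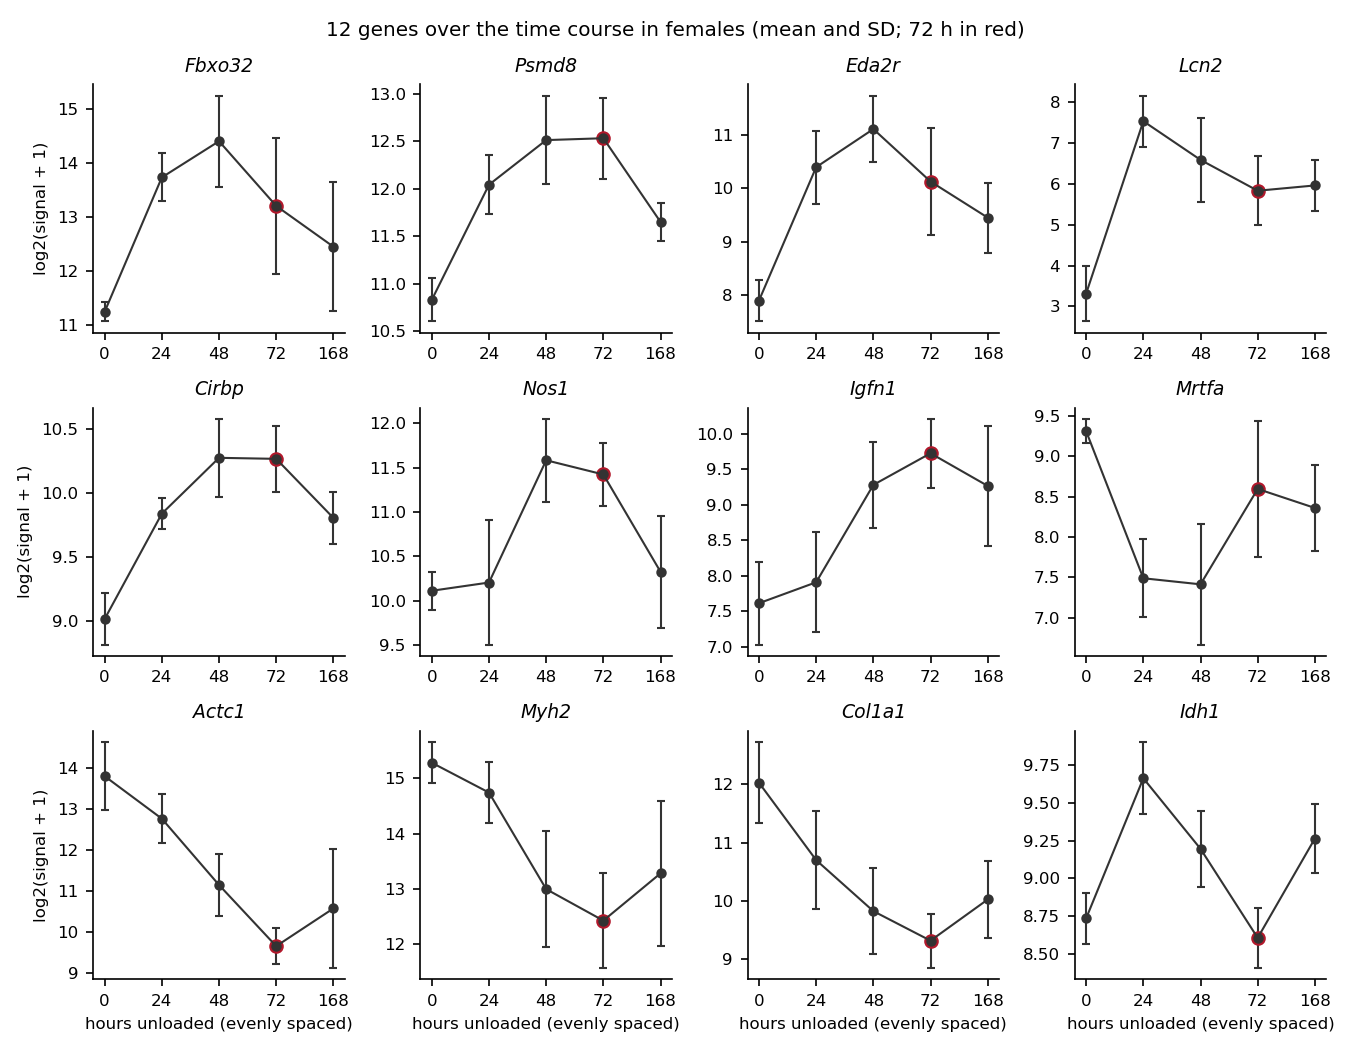
Mean log2(signal + 1) with its SD (bars) of 12 genes in the 5 female groups by hours of unloading (evenly spaced on the axis; 0 h is the control), with 72 h in red; 7 libraries at 168 h and 8 at each other time. Actc1, Myh2, Col1a1 and Idh1 have their lowest mean at 72 h, while Fbxo32, Eda2r and Nos1 have their highest at 48 h.

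In the parallel male set, 9 libraries of 72 h were set against 7 of 0 h, and the difference between the sexes was tested in a joint fit of the 10964 genes found in both tables. The male change was called for 334 genes higher and 233 lower (3.05% and 2.13% of 10964, 5.17% in all). The change differed between females and males for 268 genes, 2.44%, more positive in females for 180 (1.64%) and more negative for 88 (0.803%). The female change itself was called for 263 of these, and in all 263 the female minus male difference had the sign of the female change. This does not make the female change the larger in size where the estimated changes had opposite signs. In 42 of the 268 the estimates had opposite signs, whether or not the male change passed the test. The male change was called for 51 of the 268, so an opposite sign alone does not show opposite responses. Tables of the 2 sexes were made separately, so levels are not compared between them.

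Of the proteasome subunits 17 of 32 rose more in females than in males, and in the joint fit 32 were called higher in females (21.5% of the 10964 genes were) and 13 in males. Psmd2 changed by 1.35 in females and 0.52 in males, a difference of 0.82 ± 0.14 (adjusted p = 5.87e-04). Psmd8 changed by 1.70 in females and 0.77 in males (difference 0.93, adjusted p = 0.00735). Of the fibrillar collagen list 8 of 31 fell further in females, Col1a1 with -2.72 in females and -0.58 in males (difference -2.14, adjusted p = 0.0144), and Tnmd had -2.39 in females and -0.17 in males (difference -2.22, adjusted p = 0.00977). Nrep changed by -3.01 in females and -0.96 in males (difference -2.05, adjusted p = 3.49e-04). Odf3l2 changed by 3.02 in females and 0.78 in males (adjusted p = 0.0335), Mt1 by 1.79 in females and 0.22 in males (adjusted p = 0.0144) and Fkbp5 by 1.95 in females and 0.58 in males (adjusted p = 0.0193). Nmrk2 had opposite signs, -1.44 in females and 1.28 in males (difference -2.73, adjusted p = 0.0111), and so did Lep, the adipocyte hormone leptin, with 1.13 in females and -1.71 in males (difference 2.85, adjusted p = 0.0175). The female change of Lep (adjusted p = 0.0486) lost its call under 14 of the other settings and libraries left out. The slow fibre, nuclear oxidative phosphorylation and TCA cycle lists had 0 genes with a called difference, which does not show that the sexes changed alike. Without the libraries that stood apart, 6 of 48 genes of oxidative phosphorylation and 1 of 34 of the TCA cycle list had one. For Mss51 the changes were 2.01 in females and 2.02 in males, a difference of -0.01 ± 0.55. Without the libraries that stood apart, 505 genes were more positive and 308 more negative in females, and with libraries scaled to the same sum 185 and 44. The proteasome count was 23 and 16 of 32 in these 2 settings, and the collagen count 13 and 3 of 31.

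**Figure D5:**
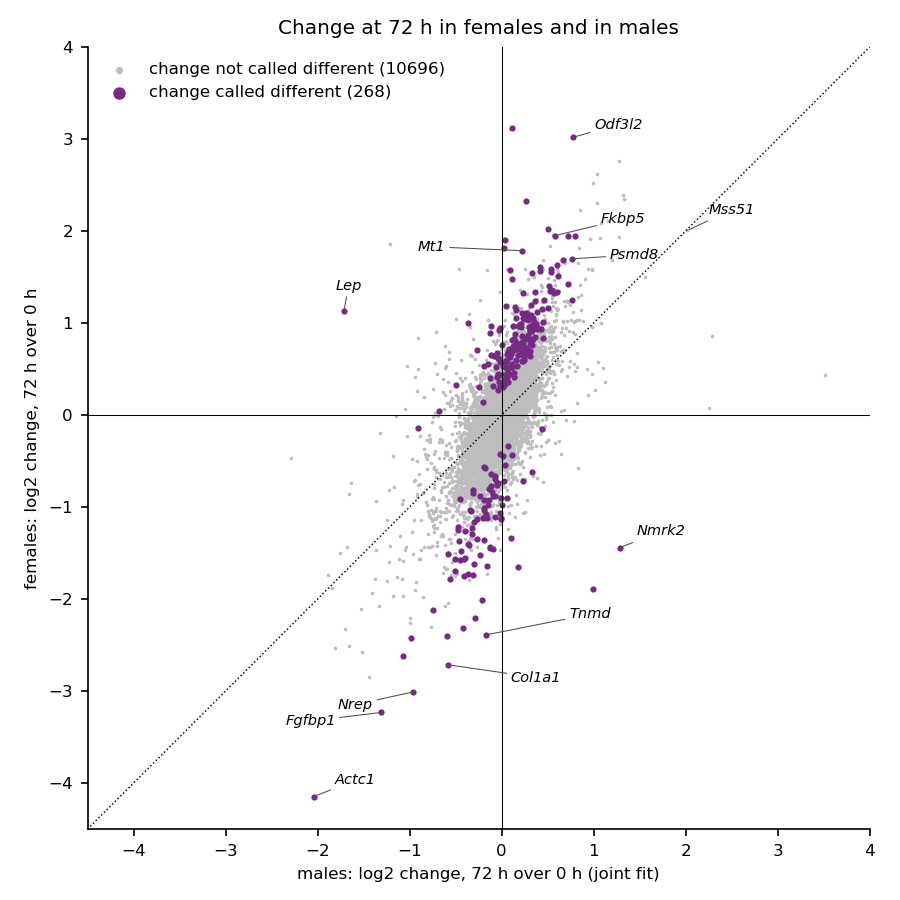
Log2 change at 72 h over 0 h in females (vertical axis) and in males (horizontal axis, joint fit) for 10964 genes, with the 268 genes whose change differed between the sexes in purple and the line of equal change dotted. Odf3l2 and Mt1 lie above the line and Nrep, Tnmd and Col1a1 below it, while Mss51 lies on it.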

How the data were processed

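RNA of 80 libraries was sequenced, 41 from males and 39 from females, with a separate deposited table for each sex. Partek, DESeq2 and STAR 2.7.8a, and both mm39 and mm10, appear in the submitters' processing notes with no role given, and whether counting used strand is not given in the sources used here. The deposited values are a normalized signal, estimated reads per gene divided by a size factor per library; the sheet name says raw data, but they are not read counts. The lowest row maximum was 100.005, so a gene whose signal stayed under about that value in all libraries has no row. The authors' deposited comparison sheet holds a ratio (fold) and a p-value adjusted by FDR per gene.

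Counts had been planned for, with limma as the fallback. limma 3.58.1 in R 4.3.3 was fitted to log2(signal + 1) over all 5 female groups, with trend and robust moderation, two-sided tests and Benjamini-Hochberg adjustment over 11068 genes; a joint fit of 10 groups and 10964 genes gave the sex difference. On data simulated with the same spread for every gene and library, beside counting noise, the fit recovered 97% of changes of 1 and 100% of changes of 2 on the log2 scale. The real spread differs between genes and some libraries stood apart, so these rates do not give the sensitivity of the fit on the real data. Depth was estimated from the signal of a single read, taken from the whole-number steps among low values. Alternatives were other scalings, weights, filters, pseudocounts, thinning, each library left out, and leaving out the libraries that stood apart; GC adjustment was added after seeing the data. Promoters are RefSeq windows of GRCm38.p6, matched by symbol.

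Named genes were the 15 highest and 15 lowest called changes with a mean signal of at least 5 ppm of the library total, up to 4 called members per list by p, 20 marker genes of unloading whatever their p, and the 5 or 6 largest per direction in the other comparisons; list members named without a value were picked after their values were seen; some genes chosen this way are left unreported. The members and the 51 lists were chosen with earlier results of these data known.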

Additional observations from a re-analysis of the deposited data

Results flagged for a closer look

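For 44 of the 171 genes named, the change at 72 h differed between females and males by a test of the difference itself (joint limma fit, adjusted p under 0.05 over 10964 genes). Over all 10964 genes, 268 or 2.44% differed. Many of the named genes were picked for a called female change, and some for a called sex difference, so a high count among them was built in. The values below are the female minus the male log2 change. It was positive for 24 genes. In the proteasome and its partners it was 0.93 for Psmd8, 0.82 for Psmd2, 0.81 for Nploc4, 0.75 for Psma7, 0.69 for Nsfl1c, 0.65 for Fbxo31, 0.61 for Psmc3 and 0.48 for Ufd1. Lysosomal and metabolic genes had 0.74 (Ctsd), 0.79 (Gaa), 0.85 (Gbe1), 1.02 (Prodh) and 1.23 (Inmt). Stress and signalling genes had 0.34 (Eif3c), 0.49 (Cirbp), 0.61 (Sod1), 0.64 (Hsp90ab1), 0.79 (Akt1), 1.14 (Igfbp3), 1.37 (Fkbp5) and 1.56 (Mt1). Nrap had 0.74, Odf3l2 2.24 and Lep 2.85.

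The difference was negative for 20 genes, most of them of the matrix and of tendon. It was -2.22 for Tnmd, -2.14 for Col1a1, -1.90 for Col1a2, -1.81 for Kera, -1.80 for Mfap4, -1.16 for Fn1, -1.15 for Col6a2, -1.04 for Col15a1, -0.97 for Col18a1, -0.96 for Fstl1 and -0.74 for Serpinh1. Muscle genes had -2.11 (Actc1), -1.56 (Fbxl22), -1.38 (Mettl21c), -0.80 (Myl1) and -0.78 (Actg1), and Car3 of the adipocyte list had -0.83. Nmrk2 had -2.73, Nrep -2.05 and Fgfbp1 -1.92. Sequencing set and time cannot be told apart in females, and their part in these differences was not tested.

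Among 342 pairs of a gene and a group, 28 single libraries lay far from the other 7 of their group, where chance flags about 1 in 20 groups. The value given is the gap to the nearest library as a share of the group's range on the log2 scale. Replicate 7 of 72 h, the library with the lowest summed signal, was the one in 9 cases: high for Dysf (0.588), Itga7 (0.567), Mt2 (0.532) and Mt1 (0.528), and low for Mss51 (0.596), Gpt2 (0.583), Sod2 (0.581), Mylk2 (0.548) and Tnmd (0.527). Without it 1790 genes were higher and 1293 lower at 72 h than at 0 h. Replicate 2 of 72 h was low for Myh7 (0.709), Oasl2 (0.65) and Myl2 (0.622) and high for Idh1 (0.663). Replicate 4 was high for Hsp90ab1 (0.575) and Gadd45a (0.532) and low for Sirt3 (0.557), and replicate 5 was low for Mstn (0.606), Igfn1 (0.546) and Xist (0.534). Among controls, replicate 6 was high for Tsc22d3 (0.661), Ddit4 (0.621) and Glul (0.551), all genes that glucocorticoids induce. Control replicate 7 was low for Ccng1 (0.644) and mt-Co1 (0.608), replicate 3 for Oasl2 (0.561) and Actc1 (0.545), and replicate 1 for Mt1 (0.548) and Gaa (0.534).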

How the results depend on the processing

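No paired analysis was possible because no label ties a 72 h library to a 0 h library. Leaving out each of the 16 libraries in turn left 2786 to 3530 genes called at 72 h against 0 h, 1581 to 2014 higher and 1205 to 1555 lower. Scaled to the library total, 972 genes were lower at 72 h than at 0 h. Against 24 h the same scaling gave 2118 calls, 1807 higher and 311 lower, and without the libraries that stood apart there were 816, of which 358 were higher. Against 48 h, 38 genes were called after quantile normalization (11 lower), 206 with array weights (107 higher and 99 lower), and 20 after adjustment for GC content (6 higher and 14 lower), the last chosen after seeing the data; without the libraries that stood apart 12 were higher and 43 lower. The sex difference was called for 972 genes with array weights (604 and 368 by direction) and 813 without the libraries that stood apart (505 and 308), and with scaling to the total 44 were more negative in females. Signs were checked only for the genes named for 72 h against 0 h and for the sex difference. Among these, no change that passed the test in either setting turned its sign. Without replicate 5 of 72 h the change of Ppargc1a, not called, was 0.0027 in place of -0.17. The balance of calls turned to more lower than higher genes against 0 h with GC adjusted. It also turned against 24 h and against 48 h, in each both with GC adjusted and without the libraries that stood apart. Against 24 h, 725 genes were higher and 768 lower with GC adjusted. Median GC content was 52.0% in genes called higher, 49.7% in genes called lower and 48.9% in the rest, and with GC adjusted 1787 were higher and 1827 lower. Thinned to the depth of the shallowest library, 1657 were higher and 1218 lower. Among named genes, calls were also lost for Cd34 with GC adjusted, Eno3 after quantile normalization, Mef2d under both, and Klf6 in a fit of the 16 libraries alone and without replicate 1 of 72 h. The adjusted p of Odf3l2 for the sex difference was 0.0556 with a pseudocount of 10. The shallow 72 h libraries limit genes of low signal, and a gene that missed the threshold is not shown to be equal.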
